A study of Homo sapiens with 5 samples.

Results

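HOX genes are the homeobox genes that lie side by side in the HOXA, HOXB, HOXC and HOXD clusters. They were taken here by symbol. Among several entries of a symbol the rule takes the one of highest mean, but no HOX symbol had more than 1 entry. Of the 38 genes considered, 23 had an entry of their own among the 37181 entries of the deposited table, which are genes or loci assembled from the reads. Another 13 were listed only inside the entry of a neighbouring HOX gene, and HOXB1 and HOXD12 were not analysed here. The study compared gefitinib-sensitive with gefitinib-resistant cells of HCC827, a human lung adenocarcinoma cell line that carries a deletion in exon 19 of EGFR. Gefitinib is an inhibitor of the EGFR tyrosine kinase. The resistant HCC827/GR cells were derived from the parental cells with stepwise doses of gefitinib over more than 6 months, so both groups carry the EGFR deletion and the resistant group is 1 derived line. Replicates 1, 2 and 3 of HCC827/GR and replicates 2 and 3 of the parental HCC827 cells (named HCC827/GS in the labels) were used. Nothing in the labels says whether replicates came from separate cultures, so the p-values measure the spread between these libraries, which may be technical.

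HOX genes encode transcription factors that give segments of the embryo their identity along the body axis and along the limbs. Within a cluster the genes point the same way and are numbered by paralog group, with low numbers used in anterior and high numbers in posterior parts of the body. Adult tissues keep part of this pattern, in which lung expresses mainly genes of the HOXA and HOXB clusters. Polycomb proteins hold HOX genes silent, Trithorax proteins keep them active, retinoic acid switches on genes of low number, and HOX proteins bind DNA together with partners of the PBX, MEIS and PKNOX families.

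Expression was given as FPKM, a level of fragments that is scaled to library size and already divided by transcript length, so levels of different genes can be set side by side. The values carry no read counts, and the read depth of each library is not known from them. A rough ratio taken from the lowest values put the depth of the 5 libraries between 0.933 and 1.275 times that of HCC827/GR replicate 1. Over all entries, libraries of the same cells correlated with r from 0.913 to 0.927 and libraries of different cells with r from 0.851 to 0.873. The cells were checked against markers of lung epithelial carcinoma. The 8 listed markers of 10 summed to between 443.2 and 573.5 FPKM in HCC827/GR and to 1068 and 1186 FPKM in HCC827, most of it from keratins, while the surfactant genes SFTPB and SFTPC stayed at or below 0.139 FPKM. EPCAM, KRT18, KRT19, CDH1 and NKX2-1, the last a transcription factor of lung epithelium, fell in HCC827/GR. Of 8 leukocyte and endothelial markers, 7 were listed, and they summed to between 0.137 and 0.367 FPKM in HCC827/GR and to 5.90 and 4.70 FPKM in HCC827. Most of that sum in HCC827 was PECAM1, which was listed at 0 in all 3 HCC827/GR libraries. Of the 7 listed, 4 were lower in every HCC827/GR library than in both HCC827 libraries, and for 3 the groups overlapped. The lower ones were PECAM1, CD79A, CD14 and CDH5, with a ratio of 13.9 between the HCC827 and HCC827/GR means for CD79A. Those that overlapped were LYZ, VWF and PTPRC, the general leukocyte marker, which stayed at or below 0.0228 FPKM in every library. The part of these marker differences in the HOX values below was not tested. In libraries of whole cultures, fewer cells that express a gene and less RNA per cell cannot be told apart.

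HOX genes were weakly expressed in both lines. The highest mean over the 5 libraries was 3.38 FPKM, for HOXA6, and 19.3% of all entries had a higher mean. The median of the means was 0.574 FPKM for the HOX entries and 0.331 FPKM for all entries, many of which are also low. The highest value in any library was 4.46 FPKM, for HOXB8 in HCC827/GR replicate 3. The HOXA cluster lies at chr7:27100354-27200106 and the HOXB cluster at chr17:48528526-48729178, both on the minus strand (GRCh38). The HOXC cluster lies at chr12:53938765-54056030 and the HOXD cluster at chr2:176092891-176190907, both on the plus strand. Summed over its 5 entries, HOXA stood at 3.12, 6.26 and 7.75 FPKM in HCC827/GR replicates 1, 2 and 3 and at 6.88 and 7.52 FPKM in HCC827. The 5 HOXB entries summed to 4.48, 3.10 and 9.62 FPKM in HCC827/GR and to 8.16 and 9.24 FPKM in HCC827. For both clusters HCC827/GR replicate 3 lay above the parental libraries and the other resistant replicates lay below them. The 5 HOXC entries summed to 1.72, 2.79 and 2.56 FPKM in HCC827/GR and to 3.58 and 5.80 FPKM in HCC827, with no overlap between the groups. The 8 HOXD entries together never passed 0.267 FPKM in a library. HOXA and HOXB entries thus held most of the HOX signal in these lung cells, and HOXD entries very little.

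**Figure D1:**
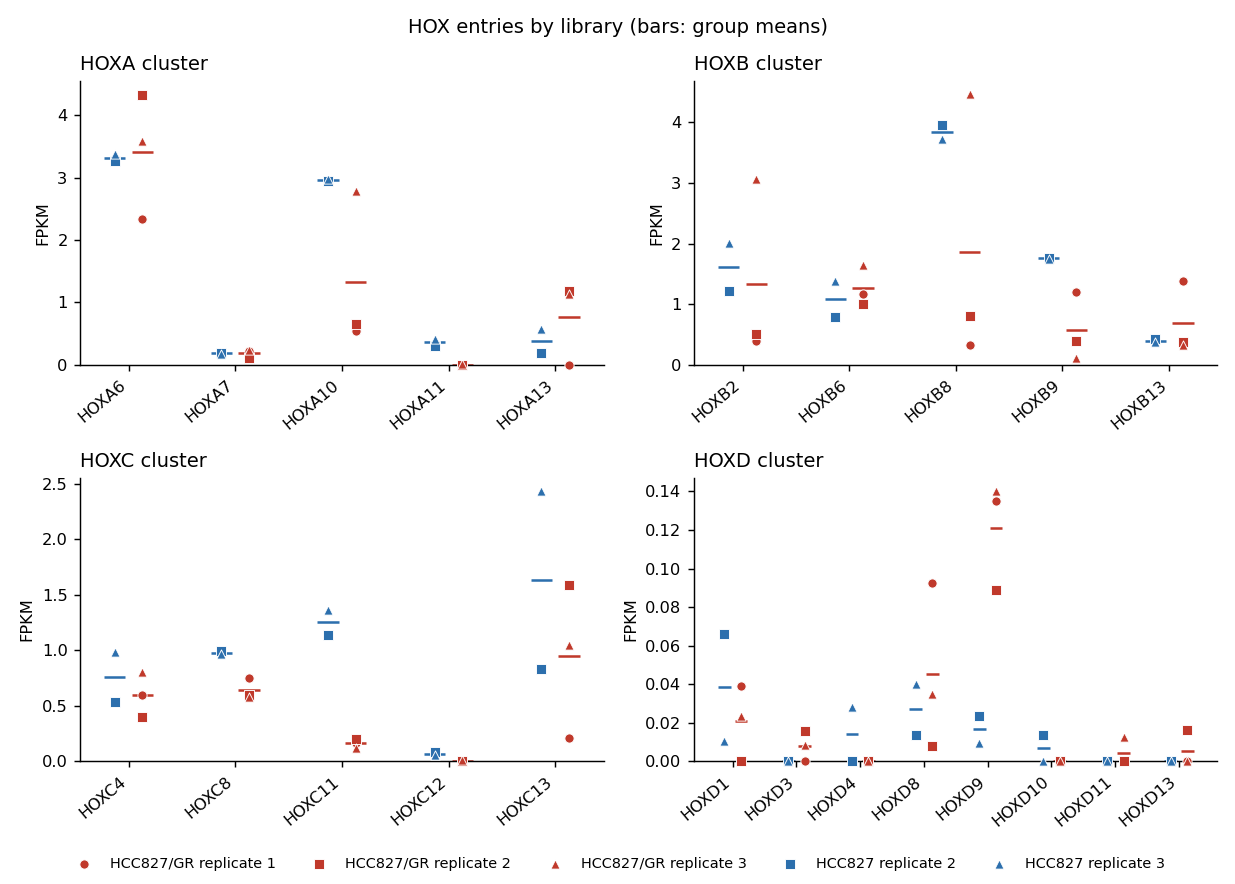
FPKM of each of the 23 HOX entries by cluster, with 1 point per library (red, HCC827/GR; blue, HCC827) and bars at the group means, each panel on its own linear axis from 0. HOXC11 lies between 0.120 and 0.203 FPKM in HCC827/GR and at 1.14 and 1.36 FPKM in HCC827, and no HOXD value passes 0.140 FPKM.

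StringTie had joined neighbouring HOX genes into single entries at 5 places, and those 5 entries hold 18 of the HOX genes. The entry named HOXA6 also holds HOXA2, HOXA3, HOXA4 and HOXA5. The entry named HOXA10 also holds HOXA9, and that named HOXB8 also holds HOXB7. HOXB6 likewise holds HOXB3, HOXB4 and HOXB5, and HOXC4 holds HOXC5, HOXC6, HOXC9 and HOXC10. A value of such an entry cannot be assigned to 1 of its genes. The other 18 entries, among them HOXC11, HOXA11, HOXB9 and every listed HOXD gene, hold a single HOX gene.

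For the comparison, limma was fitted to log2(FPKM + 1) over the 16189 entries whose mean reached 0.5 FPKM, and a difference is HCC827/GR minus HCC827 on that scale. Of the 23 HOX entries 12 reached this mean, the lowest at 0.574 FPKM. The other 11, with means of at most 0.188 FPKM, were HOXA7, HOXA11, HOXC12 and the 8 HOXD genes. None of the 12 rose and 1, HOXC11, fell at a Benjamini-Hochberg adjusted p under 0.05, against 5.26% of all entries tested that rose and 5.71% that fell. Without adjustment 2 of the 12, HOXC11 and HOXB9, had a limma p under 0.05, both lower in HCC827/GR, against 13.8% of all entries with such a p and a lower value, and the Ballgown model called none in either direction by adjusted p. The study's own thresholds, which ask for a p under 0.05 and a 2-fold change in either direction, took 0 HOX entries as higher and 0 as lower on this scale, against 2.96% and 3.97% of all entries. Because adding 1 FPKM shrinks the differences of weakly expressed genes, the same thresholds applied to the ratio of the mean FPKM took HOXC11 and HOXB9 as lower, against 7.42% of all entries. The median difference of the 12 HOX entries was -0.30, and that of all entries tested was 0.00143.

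**Figure D2:**
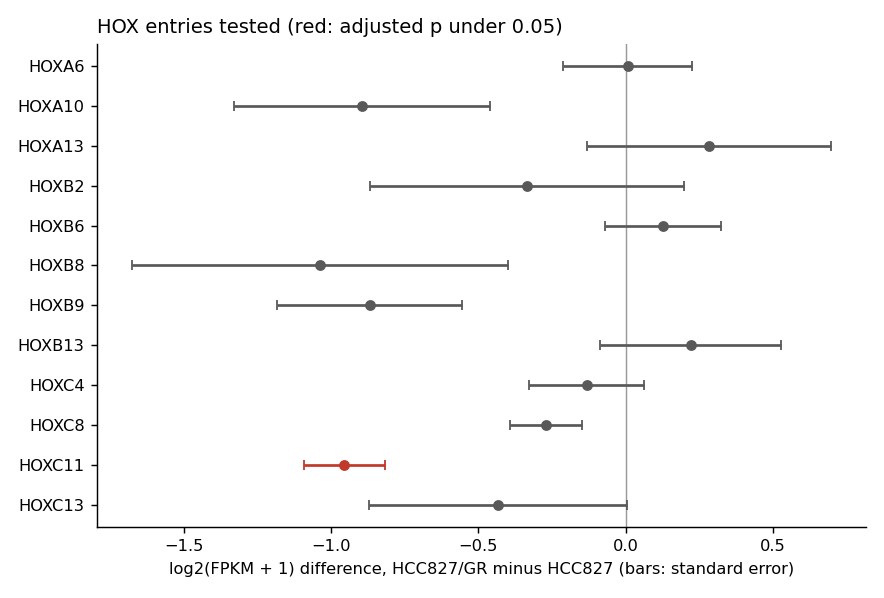
Difference on the log2(FPKM + 1) scale, HCC827/GR minus HCC827, with its standard error from limma, for the 12 HOX entries tested. HOXC11 (red) is at -0.95 with a standard error of 0.14, and 4 of the 12 differences are above 0.

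HOXC11 was the 1 entry among the 12 tested that changed. It is a posterior gene of the HOXC cluster that is active in the developing hindlimb, and it lies at chr12:53973126-53977643 on the plus strand. It stood at 0.162, 0.203 and 0.120 FPKM in HCC827/GR and at 1.14 and 1.36 FPKM in HCC827. Every resistant library was thus far below both parental libraries, and the gene was close to the bottom of the range in the resistant cells. Its mean over the 5 libraries, 0.598 FPKM, passed the filter only through the HCC827 libraries, in which it was high. The means were 0.162 ± 0.0418 FPKM (SD, n = 3) in HCC827/GR and 1.25 ± 0.158 FPKM (SD, n = 2) in HCC827, a ratio of 7.75 between HCC827 and HCC827/GR. HOXC11 fell by 0.95 on the log2(FPKM + 1) scale (SE 0.14, adjusted p = 0.0217 by limma). Without the filter its adjusted p was 0.0446 by limma. The difference stayed negative in each of the 13 alternative analyses that tested it, and it kept an adjusted p under 0.05 in 8 of them. With HCC827/GR replicate 1, 2 or 3 left out the adjusted p was 0.0773, 0.0715 or 0.0672, and with either parental library left out its mean no longer reached 0.5 FPKM and it was not tested.

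For 2 HOXA and HOXC entries below the filter, every HCC827/GR library was likewise below both HCC827 libraries. HOXA11, needed for the development of the uterus, kidney and forearm, lies at chr7:27181510-27185223 on the minus strand. It stood at 0.00278, 0.00413 and 0.00774 FPKM in HCC827/GR and at 0.301 and 0.420 FPKM in HCC827. HOXA11 was thus nearly silent in the 3 resistant libraries and weakly present in both parental ones. Without the filter on low values its difference was -0.44 (SE 0.05, adjusted p = 0.0318 by limma over 36011 entries). With a pseudocount of 0.1 in place of 1 and no filter, an alternative chosen after seeing the data, the difference was -2.12 (SE 0.26, adjusted p = 0.0284). That analysis called 0 HOX entries as higher and 2, HOXA11 and HOXC11, as lower, against 1.80% and 2.24% of all entries. HOXC12, the next gene towards the HOXC13 end from HOXC11, stood at 0, 0 and 0.00924 FPKM in HCC827/GR and at 0.0825 and 0.0552 FPKM in HCC827. Its groups did not overlap, but its adjusted p was 0.0783 without the filter.

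Groups of libraries did not overlap for 4 of the 12 tested entries, which is 33.3%, against 46.3% of all entries tested. All 4, which were HOXA10, HOXB9, HOXC8 and HOXC11, were lower in HCC827/GR, and 23.4% of all entries tested were separated in that direction. Among all 23 entries, 6 were lower without overlap, 1 was higher and 16 overlapped. That is 30.4% separated, against 33.7% of the 36011 entries with no filter, of which 18.7% were lower and 15.1% higher. The 6 lower entries were HOXA10, HOXA11, HOXB9, HOXC8, HOXC11 and HOXC12.

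HOXB9, which patterns the thoracic skeleton, stood at 1.21, 0.401 and 0.114 FPKM in HCC827/GR and at 1.77 and 1.75 FPKM in HCC827. All 3 resistant libraries were lower, but they spread over a 10.6-fold range among themselves. The difference was -0.87 (SE 0.32, adjusted p = 0.166 by limma). HOXC8, which shapes the vertebrae of the middle trunk, stood at 0.751, 0.598 and 0.582 FPKM in HCC827/GR and at 0.994 and 0.965 FPKM in HCC827. Its groups were apart, at a ratio of 1.52 between the HCC827 and HCC827/GR means, with a difference of -0.27 (SE 0.12, adjusted p = 0.249).

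HCC827/GR replicate 3 stood apart from replicates 1 and 2 by at least 2-fold for 4 of the 12 tested HOX entries. In HOXA10, HOXB2 and HOXB8 it was above both other resistant libraries, which is 25% of the HOX entries against 2.09% of all entries tested. In HOXB9 it was below both, which is 8.33% against 5.15%. The shares over all entries include every level of expression, while the tested HOX entries had means between 0.574 and 3.38 FPKM. Whether other entries of such levels spread as widely was not tested. HOXA10, a gene of the uterus and hindlimb (joined here with HOXA9), stood at 0.547, 0.646 and 2.79 FPKM in HCC827/GR and at 2.94 and 2.98 FPKM in HCC827. Replicate 3 was thus near the parental level and replicates 1 and 2 were far below it. The difference was -0.89 (SE 0.43, adjusted p = 0.271 by limma) with all libraries and -1.31 (adjusted p = 0.0294) without replicate 3. That was the 1 of 16 alternatives in which HOXA10 passed, and it leaves out the library that differed from the other 2.

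HOXB8, a HOXB gene that also acts in blood progenitors (joined here with HOXB7), stood at 0.333, 0.806 and 4.46 FPKM in HCC827/GR and at 3.96 and 3.72 FPKM in HCC827. Replicate 3 was the highest of the 5 libraries and replicates 1 and 2 were the lowest, so the groups overlapped. The difference was -1.04 (SE 0.64, adjusted p = 0.369 by limma) and became -1.64 (adjusted p = 0.0411) without replicate 3, again the 1 of 16 alternatives that passed. HOXB2, which acts in the developing hindbrain, stood at 0.400, 0.505 and 3.07 FPKM in HCC827/GR and at 1.22 and 2.01 FPKM in HCC827. Its highest library was again HCC827/GR replicate 3, and its difference was -0.33 (SE 0.53, adjusted p = 0.744). The count of HOX entries that fell was therefore 1 (HOXC11) with all libraries and 2 (HOXA10 and HOXB8) without HCC827/GR replicate 3, where 2.64% of all entries tested fell.

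HCC827/GR replicate 1 also stood apart, with the shares over all entries again not matched for level. It was at least 2-fold below both other resistant libraries in HOXA13, HOXB8 and HOXC13, which is 25% of the tested HOX entries against 3.46% of all entries tested, and at least 2-fold above them in HOXB9 and HOXB13, which is 16.7% against 3.13%. HOXA13, which acts in the digits and the genital tract, was listed at 0 in that library and at 1.18 and 1.13 FPKM in replicates 2 and 3, against 0.188 and 0.580 FPKM in HCC827. HOXC13, a gene of hair and nail, stood at 0.209, 1.59 and 1.05 FPKM in HCC827/GR and at 0.833 and 2.43 FPKM in HCC827. HOXB13, a gene of the prostate and hindgut, stood at 1.38 FPKM in HCC827/GR replicate 1 and between 0.320 and 0.418 FPKM in the other 4 libraries. The groups overlapped for HOXA13, HOXC13 and HOXB13, with adjusted p of 0.718, 0.590 and 0.701.

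The 3 remaining tested entries are all joined ones and were similar in level in the 2 lines. HOXA6 stood at 2.34, 4.33 and 3.58 FPKM in HCC827/GR and at 3.26 and 3.37 FPKM in HCC827, so the parental libraries lay inside the resistant range. Its difference of 0.01 (SE 0.22) was near 0, and its sign changed with the analysis. HOXB6 had a difference of 0.13 (SE 0.20) and HOXC4 one of -0.13 (SE 0.20), with adjusted p of 0.739 and 0.722.

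HOXD genes, which pattern the limbs and the lower trunk, were near 0 in both lines. Of the 40 values of the 8 genes, 20 were listed at 0, and the highest was 0.140 FPKM. HOXD9 was the one HOX entry that was higher in HCC827/GR without overlap, at 0.135, 0.0888 and 0.140 FPKM against 0.0235 and 0.00976 FPKM in HCC827. Its adjusted p without the filter was 0.102. HOXA7, the remaining entry below the filter, stood between 0.104 and 0.243 FPKM in all 5 libraries.

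**Figure D3:**
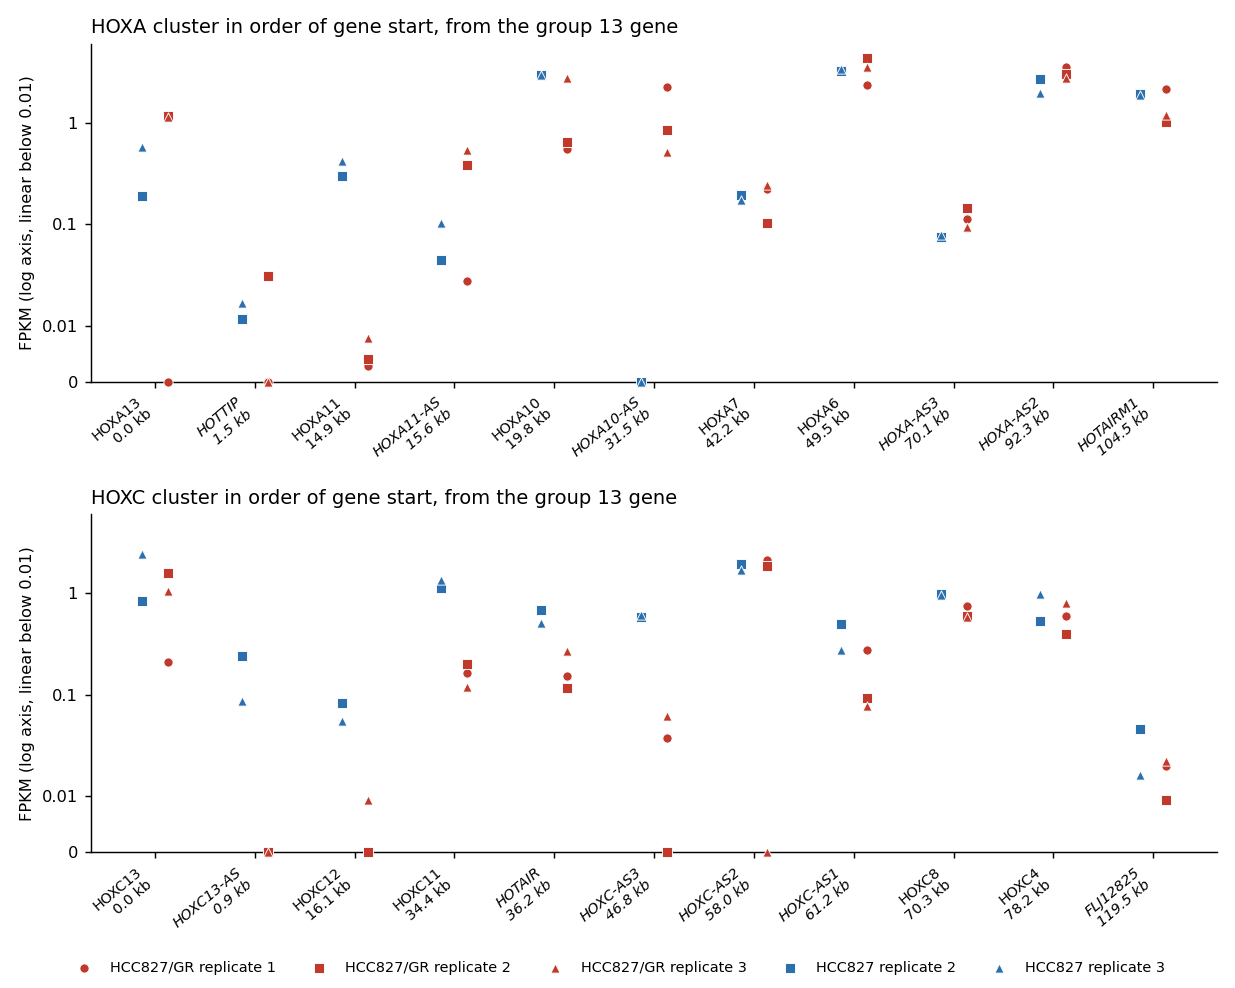
FPKM of the HOX genes and non-coding RNA genes (italic) of the HOXA and HOXC clusters, in order of gene start and with the distance in kb from the group 13 gene, on an axis that is logarithmic above 0.01 FPKM and linear below it, with 1 symbol per library. HOXC11, HOTAIR and HOXC-AS3, which lie 34.4, 36.2 and 46.8 kb from HOXC13, are each lower in all 3 HCC827/GR libraries than in both HCC827 libraries.

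Each HOX cluster also holds genes of long non-coding RNAs, many of them read from the other strand. Of 27 considered, 17 were listed and 5 were tested, and neither limma nor the Ballgown model called any of the 5 by adjusted p. One of the 5, HOXA10-AS, had an unadjusted p under 0.05. HOXA10-AS, HOXA-AS2 and HOXB-AS3 were higher in HCC827/GR without overlap, the last 2 with adjusted p of 0.283 and 0.240 by limma. The other 2 tested overlapped. Of the 17 listed, 4 were higher and 3 lower without overlap and 10 overlapped. That is 41.2% separated, against 33.7% of all entries with no filter. HOTAIR, an antisense RNA of the HOXC cluster known for binding Polycomb proteins, lies at chr12:53962308-53974956 and overlaps HOXC11 by 1831 bases. It stood at 0.152, 0.116 and 0.272 FPKM in HCC827/GR and at 0.682 and 0.513 FPKM in HCC827. The 2 groups were separated in the same direction as in HOXC11, at means too low for the filter, and the adjusted p without the filter was 0.146. Whether the libraries kept the strand is not given in the sources used here, so reads of HOXC11 and HOTAIR within the overlap cannot be told apart.

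HOXC-AS3, a non-coding RNA gene on the side of HOXC11 away from HOXC12 at chr12:53981509-53985519 that overlaps HOXC10 by position, stood at 0.0374, 0 and 0.0617 FPKM in HCC827/GR and at 0.580 and 0.609 FPKM in HCC827. Every resistant library was close to 0 or at it. Without the filter HOXC-AS3 was the 1 listed non-coding gene that passed, with a difference of -0.63 (SE 0.06, adjusted p = 0.0269 by limma), and 3.50% of all entries passed in either direction in that analysis. HOXC13-AS was listed at 0 in all 3 HCC827/GR libraries and stood at 0.241 and 0.0860 FPKM in HCC827. Along the HOXC cluster, HOXC13-AS, HOXC12, HOXC11, HOTAIR, HOXC-AS3 and HOXC8 were thus lower in HCC827/GR without overlap, as were 18.7% of all entries with no filter, and the groups overlapped for HOXC13, HOXC-AS2, HOXC-AS1, HOXC4 and FLJ12825.

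In the HOXA cluster, HOXA10-AS overlaps HOXA10 by 1325 bases and lies wholly within the span of HOXA9, which the HOXA10 entry also holds. HOXA10-AS was listed at 0 in both HCC827 libraries and stood at 2.24, 0.852 and 0.518 FPKM in HCC827/GR (adjusted p = 0.144 by limma). It thus passed the filter only through the HCC827/GR libraries. HOXA11-AS, which overlaps HOXA11 by 717 bases, stood at 0.0278, 0.387 and 0.540 FPKM in HCC827/GR and at 0.0441 and 0.104 FPKM in HCC827. Replicates 2 and 3 of HCC827/GR were the highest of the 5 libraries for HOXA11-AS and replicate 1 was the lowest, so the groups overlapped, and HOXA11 itself was near 0 in all 3. As with HOXC11 and HOTAIR, reads from either strand within these overlaps cannot be told apart. HOTAIRM1, known from myeloid differentiation, stood between 1.02 and 2.18 FPKM in HCC827/GR and at 1.91 and 1.89 FPKM in HCC827 (difference -0.26, SE 0.22, adjusted p = 0.526). HOTTIP, a transcript at the HOXA13 end known for binding WDR5, did not pass 0.0307 FPKM in any library.

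The start regions of HOXA11 and HOXA13 are shown because HOXA11 and HOXA11-AS start from nearly the same stretch of DNA, and because HOXA11 differs from its CpG-rich neighbour HOXA13. Each sequence is the RefSeq window on GRCh38.p14 from 250 bases before to 50 bases after the gene start, written 5′ to 3′ along the gene's own strand with every CpG in capitals. The HOXA11 window is chr7:27185183-27185482 and the HOXA13 window is chr7:27200042-27200341, both on the minus strand.
HOXA11: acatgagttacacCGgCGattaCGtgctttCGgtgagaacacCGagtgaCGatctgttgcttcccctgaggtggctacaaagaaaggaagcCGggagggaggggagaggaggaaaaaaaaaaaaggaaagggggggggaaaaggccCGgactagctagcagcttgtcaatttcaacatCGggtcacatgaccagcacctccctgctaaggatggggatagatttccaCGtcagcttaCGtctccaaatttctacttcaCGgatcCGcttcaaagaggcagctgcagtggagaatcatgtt
HOXA13: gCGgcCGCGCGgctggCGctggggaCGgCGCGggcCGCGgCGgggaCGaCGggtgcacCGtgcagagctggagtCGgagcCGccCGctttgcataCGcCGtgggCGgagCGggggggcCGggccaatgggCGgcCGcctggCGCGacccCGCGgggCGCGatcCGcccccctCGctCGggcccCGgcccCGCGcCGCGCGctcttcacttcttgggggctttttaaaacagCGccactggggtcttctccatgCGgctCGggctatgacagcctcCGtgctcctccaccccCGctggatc
The HOXA11 window held 13 CpG at 51.3% G and C, which is 0.674 of the number its base composition would give. The HOXA13 window held 44 CpG at 76.3% G and C, or 1.01 of that number. The windows of HOXA11 and HOXA11-AS, which point in opposite directions, share 275 of their 300 bases. Over the 27 windows of the 20 HOX genes that had one the median ratio was 0.849, against 0.579 over all 35116 windows. The composite site of PBX and HOX proteins, written TGATTNAT and searched on both strands, was found in 2 of the 27 HOX windows, those of HOXA2 and HOXD11, and in 2.82% of all windows. Neither of the windows printed here holds it.

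The partners with which HOX proteins bind DNA, the PBX, MEIS and PKNOX proteins of the TALE family, ranged from near 0 to above every HOX entry. Of the 8 genes examined 4 were tested, and none passed by adjusted p, by unadjusted p under 0.05 or in the Ballgown model. PBX2 stood between 7.22 and 9.14 FPKM in HCC827/GR and at 6.81 and 8.14 FPKM in HCC827, with overlap. PBX3 stood at 7.73, 5.44 and 6.59 FPKM in HCC827/GR and at 3.69 and 5.13 FPKM in HCC827. It was the one tested partner whose groups did not overlap, with a difference of 0.49 (SE 0.19, adjusted p = 0.188 by limma). The differences were 0.14 for PBX2, -0.07 for MEIS2 and -0.58 for PKNOX1, the last listed at 0 in HCC827/GR replicate 3. PBX4, MEIS1, MEIS3 and PKNOX2 had means under 0.5 FPKM.

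**Figure D4:**
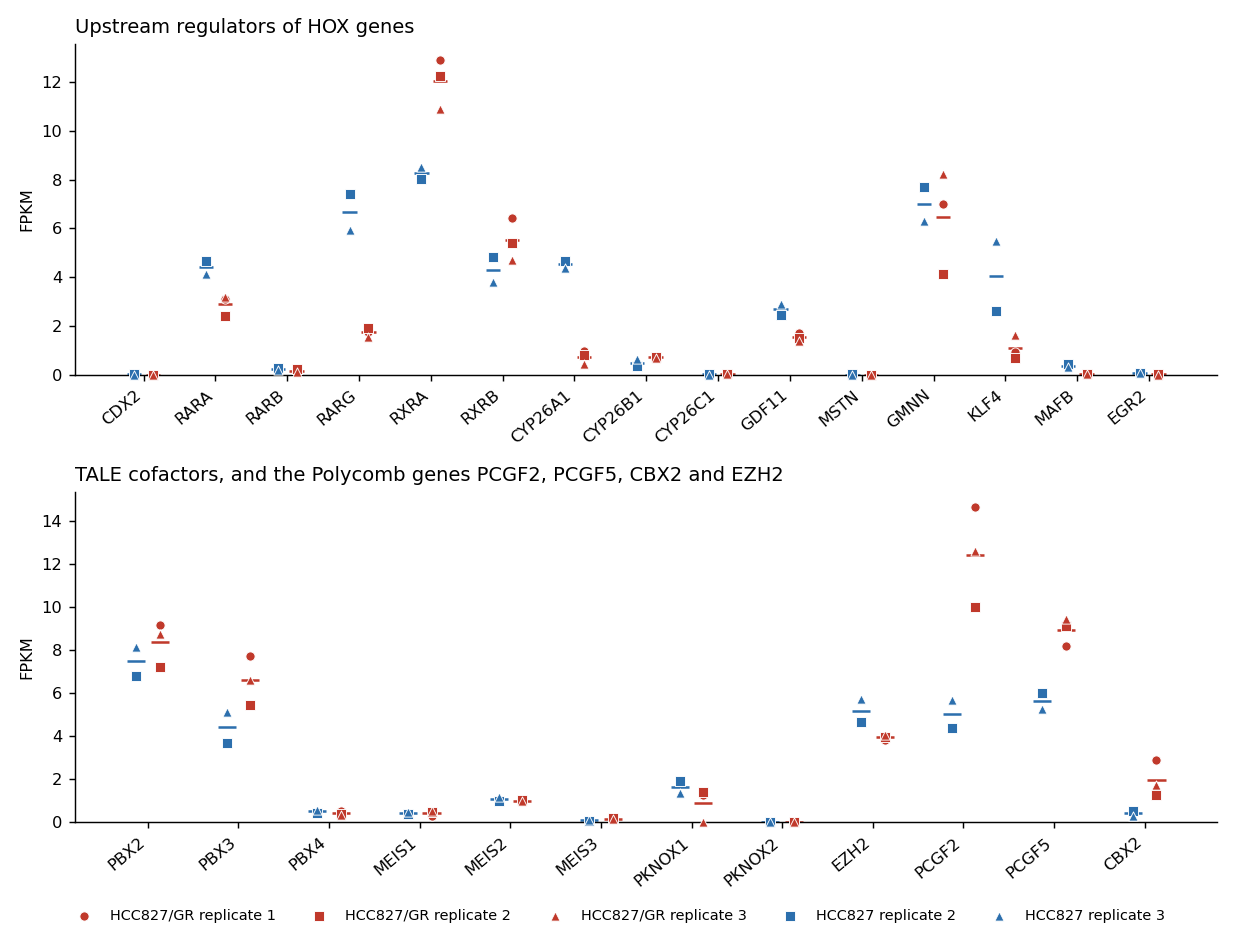
FPKM by library (red, HCC827/GR; blue, HCC827; bars, group means) of upstream regulators of HOX genes (top) and of TALE partners and 4 Polycomb genes (bottom), on linear axes from 0. RARG lies between 1.56 and 1.92 FPKM in HCC827/GR and at 7.41 and 5.94 FPKM in HCC827, and PCGF2 between 9.97 and 14.6 FPKM against 4.38 and 5.69 FPKM.

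Among upstream regulators of HOX genes, 2 of the 9 tested changed, which is 22.2% against 11.0% of all entries that passed in either direction. Both belong to the retinoic acid pathway, but so do RARA, RXRA, RXRB and CYP26B1 among those tested. The list itself thus leans to that pathway. RARG, a receptor for retinoic acid, stood at 1.74, 1.92 and 1.56 FPKM in HCC827/GR and at 7.41 and 5.94 FPKM in HCC827. It fell by 1.48 (SE 0.13, adjusted p = 0.00784 by limma) and kept an adjusted p under 0.05 with each library left out in turn. CYP26A1, the enzyme that breaks down retinoic acid and is itself switched on by it, stood at 0.971, 0.808 and 0.451 FPKM in HCC827/GR and at 4.68 and 4.39 FPKM in HCC827. It fell by 1.68 (SE 0.16, adjusted p = 0.00996), and without HCC827 replicate 2 or 3 the adjusted p was 0.0710 or 0.0624. Both genes were lower in every resistant library. RARA stood at 3.10, 2.41 and 3.18 FPKM against 4.67 and 4.14 FPKM, and RXRA, the partner of these receptors, at 12.9, 12.3 and 10.9 FPKM against 8.03 and 8.54 FPKM. Neither passed, with adjusted p of 0.0963 and 0.0569. GDF11 and KLF4 were also lower without overlap, with adjusted p of 0.0527 and 0.0874 by limma. CYP26B1 was higher without overlap, with an adjusted p of 0.416. Of the 9 tested, 5 were lower and 2 higher without overlap, which is 77.8% against 46.3% of all entries tested.

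The start region of CYP26A1 is shown because it holds an exact spelling of a site for retinoic acid receptors. That spelling is 2 copies of AGTTCA in the same direction with 5 bases between them, and it was searched on both strands. The site, found here on the minus strand relative to the gene, is in capitals in the RefSeq window at chr10:93073643-93073942 (GRCh38.p14, plus strand).
CYP26A1: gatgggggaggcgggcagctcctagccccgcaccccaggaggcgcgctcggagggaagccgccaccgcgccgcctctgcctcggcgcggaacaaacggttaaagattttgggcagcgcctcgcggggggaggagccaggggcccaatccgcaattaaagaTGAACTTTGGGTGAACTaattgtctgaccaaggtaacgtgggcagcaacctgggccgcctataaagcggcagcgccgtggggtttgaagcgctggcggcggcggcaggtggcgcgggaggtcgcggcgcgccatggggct
Only 4 of the 35116 windows held this motif, which is 0.0114%, and it was in 0 of the 27 HOX windows. No other spelling or spacing was searched, so these counts do not show that HOX windows lack sites for these receptors. These letters say nothing of receptor binding in these cells, which was not measured.

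Of the 29 Polycomb genes, all of which were tested, 2 rose and none fell, which is 6.90% against 11.0% of all entries. PCGF2 and PCGF5, alternative subunits of Polycomb repressive complex 1, were those that rose. PCGF2 stood at 14.6, 9.97 and 12.6 FPKM in HCC827/GR and at 4.38 and 5.69 FPKM in HCC827 (difference 1.14, SE 0.19, adjusted p = 0.0318 by limma). PCGF5 rose by 0.58 (SE 0.11, adjusted p = 0.0382). With 1 library left out, PCGF2 kept its call only without HCC827/GR replicate 2 and PCGF5 in no case, with adjusted p of up to 0.148 and 0.136. EZH2, the methyltransferase of Polycomb repressive complex 2, stood at 3.81, 3.97 and 4.05 FPKM in HCC827/GR and at 4.66 and 5.72 FPKM in HCC827. Its groups did not overlap, and its adjusted p was 0.154.

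Of the 21 Trithorax and related genes tested, 1 fell, which is 4.76% against 11.0% of all entries. KMT2D, a histone methyltransferase of enhancers, fell by 0.45 (SE 0.09, adjusted p = 0.0476 by limma), and it passed in no analysis with 1 library left out, where the adjusted p lay between 0.0965 and 0.152. KMT2A, the founding Trithorax gene in the regulation of HOX genes, was listed only inside the entry of TMEM25, and no value is given for it.

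Of the protein-coding genes chosen around the clusters, 26 were listed and 21 were tested. The choice followed no set distance, with CHN1 at 1087.5 kb from HOXD, and was made with earlier results of these data known. The shares below therefore do not describe the flanks as a whole. SNX10 and ATP5G3 rose and JAZF1, CBX5, COPZ1 and SKAP2 fell, which is 28.6% against 11.0% of all entries. Beside HOXA, SNX10 rose by 2.82 (SE 0.48, adjusted p = 0.0312 by limma) 726.0 kb from the cluster. JAZF1, which overlaps TAX1BP1 by position, fell by 1.12 (SE 0.13, adjusted p = 0.0122) at a distance of 630.5 kb, and its difference was -0.44 (adjusted p = 0.363) when the entries that share its symbol were summed. The mean of JAZF1, 0.795 FPKM, passed the filter only through the HCC827 libraries. SKAP2 fell by 0.84 (SE 0.17, adjusted p = 0.0471) at 105.1 kb. Beside HOXC, CBX5, which encodes a heterochromatin protein, fell by 1.04 (SE 0.11, adjusted p = 0.0106) at 174.9 kb and COPZ1 fell by 0.92 (SE 0.18, adjusted p = 0.0441) at 245.2 kb. Beside HOXD, ATP5G3 rose by 0.62 (SE 0.11, adjusted p = 0.0355) at 908.3 kb, and beside HOXB no neighbour passed. The 3 tested neighbours nearest to a cluster, SMUG1 at 65.2 kb, MTX2 at 78.5 kb and LNPK at 90.1 kb, did not pass, with adjusted p of 0.157, 0.154 and 0.968. SMUG1 was nonetheless lower and MTX2 higher in HCC827/GR without overlap. On the SMUG1 side of HOXC, HNRNPA1, which did not pass, and NFE2, below the filter, were lower without overlap as well. On the other side CALCOCO1 and ATP5G2 overlapped. Groups did not overlap for 57.1% of the 21 tested neighbours, equally often higher and lower, against 46.3% of all entries tested. The count of 6 became 3 without HCC827/GR replicate 2, 4 without replicate 3 and 0 without HCC827/GR replicate 1 or either HCC827 library.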

How the data were processed

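Total RNA of 5 libraries was sequenced by the authors, who trimmed reads with Cutadapt, mapped them with Bowtie2 and TopHat2, assembled them with StringTie and deposited FPKM per gene or locus. Quality was read with FastQC. The submitters' processing notes name hg18, and no versions. The labels describe a small-RNA kit with single-end reads and the study's methods an mRNA kit with paired-end reads, so which library type was made is not settled. A further 1 FPKM column matched no sample and was left out. No value was rescaled. HOX members were taken by whole symbol, and 1 gene that the rule takes and 1 gene of the other lists are not reported here. Positions came from GENCODE 29 (GRCh38) through Ensembl transcript identifiers, of which 135164 of 135299 were found, since hg18 could not be matched to the reference. Start regions came from RefSeq.

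HCC827/GR (n = 3) and HCC827 (n = 2) were compared with limma 3.58.1 in R 4.3.3 (lmFit, eBayes with trend, two-sided) on log2(FPKM + 1) for entries whose mean reached 0.5 FPKM, with Benjamini-Hochberg adjustment over all 16189 entries and a threshold of 0.05. An exact permutation test of 3 against 2 libraries cannot go below p = 0.1 and was not used. The fit was tested on simulated data. Motifs, positions and plots used Python 3.11.15, pandas 2.3.3, numpy 2.4.6 and matplotlib 3.10.9.

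By the rule for named genes, every HOX member, genes of the PBX, MEIS and PKNOX families, HOTAIR, HOTTIP, HOTAIRM1, EZH2 and KMT2A are named, with those of each other list that passed. Libraries of HOX entries other than HOXC11 and the values of HOXC-AS3, HOXC13-AS, HOXA10-AS, HOXA11-AS, RARA, RXRA, SMUG1, MTX2 and LNPK are given by choice after the values were seen. The same holds for what is said of HOXA-AS2, HOXB-AS3, GDF11, KLF4, CYP26B1, HNRNPA1, NFE2, CALCOCO1 and ATP5G2. It also holds for the leukocyte and endothelial markers other than PECAM1. The members and lists were chosen with earlier results of these data known. Alternatives were a pseudocount of 0.1, no filter, a minimum mean of 1 FPKM, median-ratio and quantile scaling, small non-coding RNA left out, limma without trend, the Ballgown model, a block for the replicate number, entries of a symbol summed, the ratio of mean FPKM and each library left out. No filter with a pseudocount of 0.1 was added after seeing the data.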

Additional observations from a re-analysis of the deposited data

How the results depend on the processing

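Of 29 genes whose differences were recomputed, 453 values in all, 22 kept their sign in every alternative that tested them. HOXA6, near 0, took -0.0003 with a pseudocount of 0.1 (also without the filter), -0.0012 with quantile normalization, -0.2111 in the Ballgown model and -0.1414, -0.0317 and -0.0118 without HCC827/GR replicate 2, HCC827/GR replicate 3 or HCC827 replicate 2 (up to 0.1948 without another library). HOXB6 took -0.0235 in the Ballgown model and -0.0772 without HCC827 replicate 2 (up to 0.3287), HOXA13 -0.2498 in the Ballgown model, MEIS2 0.0329 with quantile normalization, and HOXC4 0.0546 and HOXC13 0.0196 without HCC827 replicate 3 (down to -0.318 and -0.8855). The cause of these changes was not tested.

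The count of HOX entries called lower (1) was 2 with no filter (also with a pseudocount of 0.1), 0 with a mean of at least 1 FPKM, which leaves HOXC11 out, 0 in the Ballgown model and 0 to 2 with a library left out. By the study's thresholds the count (0) was 2 with the ratio of means, 1 with a pseudocount of 0.1, 2 when that was joined to no filter, 1 in the Ballgown model and 0 to 2 with a library left out. Non-coding genes (0) became 1 with no filter at either pseudocount. The 6 neighbours became 2 with no filter, 3 with a pseudocount of 0.1 as well, 0 in the Ballgown model and 0 to 4 with a library left out, and were 5 with median-ratio scaling, where SKAP2 (adjusted p = 0.05002) and COPZ1 (0.0534) no longer passed and CHN1 did, and 4 without the trend, where they had 0.0528 and 0.0501. The 2 Polycomb genes became 0 with no filter at either pseudocount, 1 without small non-coding RNA, 0 in the Ballgown model and 0 to 1 with a library left out. The 1 Trithorax gene became 0 with no filter at either pseudocount, in the Ballgown model, without the trend, with symbols summed and with any library left out. The 2 upstream regulators became 3 with no filter at either pseudocount, 0 in the Ballgown model and 1 to 2 with a library left out. Over all entries, 851 were called higher and 924 lower, against 504 higher with no filter, 6 and 9 in the Ballgown model, which keeps fewer residual degrees of freedom, and 181 to 450 and 248 to 434 with a library left out.

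Replicates 2 and 3 share numbers between the groups, but their deviations correlated at only 0.0328 and 0.0147 over 2 pairs and the labels name no shared batch, so no pairing was established. With the replicate number as a block, which leaves HCC827/GR replicate 1 without weight in the difference, 0 of all entries, HOX entries, neighbours, Polycomb, Trithorax or upstream genes were called, 1 HOX entry passed the study's thresholds, and HOXB13 took -0.0514. HOXC11 was then at -0.95 (adjusted p = 0.167).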
